A study of Mus musculus with 48 samples.

Results

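The comparison described here is between hippocampal microglia of irradiated and sham-treated mice 1 week after a single dose to the brain. Its members were taken from the labels alone: all 6 irradiated and all 6 sham libraries of that time, 12 of the 48 libraries of the series. Of 48526 genes in the deposited table, 10132 were tested, namely those with an RPKM (reads on a gene, divided by its length in kilobases and by the library's total reads) of 1 or more in 6 or more libraries. The mice were C57BL/6 animals, and each gave 1 library. Irradiated mice received 8 Gy to the whole brain in 1 session on postnatal day 21. Sham mice carry the label of a control for the same time, and the labels give no further detail of the sham procedure. After perfusion the hippocampus was dissected and digested mildly, and the cells were sorted on Cx3cr1, a chemokine receptor that microglia carry and that other macrophages and monocytes carry as well. The same groups exist at 2 h, 6 h and 1 day, each with its own sham animals, and they serve here to say which of the 1 week changes had been present earlier.

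Microglia are the resident macrophages of the brain. They are long-lived, renew themselves locally, survey the tissue and clear dying cells and synapses. Radiation breaks DNA, and the breaks stabilise the transcription factor p53, which turns on genes for arrest of the cell cycle, repair, metabolism and cell death, together with its own inhibitor Mdm2. Dying cells and free nucleic acids in irradiated tissue can also drive interferon responses and a phagocytic state known as the disease-associated state, in which genes typical of resting, or homeostatic, microglia fall.

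The 12 libraries held 1889343 to 3856777 reads on genes in the sham group and 2266275 to 3507424 in the irradiated group. Markers fit the label: the 12 microglial markers summed to 39150 to 43066 RPM (reads scaled to a common library total) in the sham and 42081 to 49907 RPM in the irradiated libraries. Among the 9 markers of monocytes and neutrophils, S100a8, S100a9, Lcn2 and Chil3 were at 0 in all 12 libraries, and Ly6c2, Ngp and Camp had 0 reads in the sham and at most 3 reads in an irradiated library. Ccr2, a monocyte receptor, had 11 to 69 reads in the sham and 12 to 57 in the irradiated libraries, and Plac8 had 6 to 61 and 6 to 24. This list summed to 6.54 to 38.1 RPM in the sham and 11.9 to 24.5 RPM in the irradiated libraries. The lymphocyte list summed to 22.2 to 50.04 and 27.5 to 55.8 RPM, nearly all of it reads of Cd79b (42 to 193 and 69 to 183 reads), while the T cell genes Cd3e, Cd3g, Cd3d and Trbc2 were at 0 in all 12. Summed markers of perivascular macrophages ranged from 50.04 to 167 RPM in the sham and 75.02 to 131 RPM in the irradiated libraries. Those of astrocytes ranged from 261 to 365 and from 247 to 541 RPM, nearly all of it reads of Slc1a3 (630 to 1028 and 524 to 1571 reads). Gfap had at most 8 reads in a sham and 7 in an irradiated library. Markers of the oligodendrocyte lineage summed to 134 to 310 and 119 to 218 RPM. Irradiated library 4 stood apart in neuronal markers (365 RPM, with 914 reads of Slc17a7, against at most 8.54 RPM elsewhere), and irradiated library 3 in neural progenitor markers (444 RPM, with 1240 reads of Sox4). Sham library 3 had the fewest reads and lay apart from the other 11 on the second component of the 1 week libraries. Mitochondrial genes took 1.81% ± 0.335 (SD, n = 6) of reads in the sham and 3.31% ± 0.685 in the irradiated libraries, without overlap (exact two-sided permutation test, p = 0.00216, the smallest that 6 against 6 libraries can give). Most of these were reads of the large mitochondrial ribosomal RNA mt-Rnr2, at 1.54% ± 0.332 and 3.04% ± 0.692. The part of this share in the gene results below was not tested, beyond a fit with totals that left mitochondrial genes out, which called 363 genes against 359. In bulk samples such as these, fewer cells of a type and less RNA per cell cannot be told apart.

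Every change is the irradiated mean less the sham mean of log2(RPKM + 1), followed by ± its standard error (6 libraries per group). The adjusted p values come from limma after Benjamini-Hochberg correction over the 10132 genes. This scale understates the change of genes with low RPKM. RPKM values of a gene are given as the lowest, the median and the highest library of a group, in this order. A gene is said to have risen or fallen, or to be called, when its adjusted p is under 0.05. RPKM here is per base of the whole gene span with its introns, so a level is compared between libraries and never between genes. The labels do not say whether reads were counted by strand, so the values of genes that overlap another gene (among the genes named below Amz1, Lacc1, Tap1, Gas6, Stab1, Sulf2, Glipr1, Prdx2, Bid, Ctsb, Pnp, Dhx58 and P2ry12) may hold reads of their partner.

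At 1 week 359 genes were called, 206 that rose and 153 that fell, which is 3.54% of those tested (2.03% up and 1.51% down). At 1 day the call rate had been 4.29% (294 up, 2.9%, and 141 down, 1.39%). The rises at 1 week had a median of 0.75 and the falls a median of -0.58. Past a change of 1 there were 52 rises and 11 falls. The irradiated and sham libraries did not overlap in 158 of the called genes, 105 higher and 53 lower. Over all tested genes 3.18% did not overlap, 2.06% higher and 1.12% lower. The deposited RPKM are for the most part divided by the total of another library, and before the rescaling used here they gave 10 calls at 1 week, while limma-voom on the recovered reads gave 709. The number of calls rested on single libraries: it was 137 without sham library 4, 225 without sham library 5, and 165, 226, 158 and 205 without irradiated library 1, 4, 5 and 6, and it reached 495 without irradiated library 2. In every one of the 12 fits that left out a library 110 of the genes were called, 70 up and 40 down, and the genes described in detail are of this kind unless a loss is stated.

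Genes were put into 4 classes by their calls at 1 week and at the earlier times, and 156 of the 359 genes called at 1 week met the rule of none of them. Persisting genes, called in the same direction at 1 day and 1 week, numbered 49 (0.484% of tested genes), 44 up and 5 down. Genes no longer changed, called at 1 day but not at 1 week and with a change at 1 week that differed from that at 1 day by its own test, numbered 183 (1.81%), 119 of them up at 1 day. Reversed genes, called at 1 week against the direction of an earlier call at 2 h or 1 day and called for that difference, numbered 34 (0.336%), and 24 of these were up at 1 week. New genes, called at 1 week but at neither 2 h nor 1 day and called for the change at 1 week minus the mean of those at 2 h and 1 day, numbered 120 (1.18%), 70 up and 50 down. The contrast of 1 week with that mean was called for 5.51% of genes, 2.93% upward and 2.58% downward. The difference between the 1 week and 1 day changes was itself called for 550 genes (5.43%), 257 upward (2.54%) and 293 downward (2.89%). That count was 342 without sham library 4 of 1 week and 847 without sham library 6 of 1 day, the shallowest library of the series. The 6 h group was kept out of the class rules, because its sham libraries 1 to 4 lie at -43.06 to -36.01 on the first component of all 48 libraries while sham libraries 5 and 6 lie at 11.34 and 15.99. Of the classes, persisting genes depended least on single 1 week libraries (40 to 52 genes over the 12 fits that left one out) together with genes no longer changed (162 to 182). Reversed genes fell to 10 and new genes to 40 without sham library 4. Left out in turn, sham library 1 and 5 and irradiated library 1, 4, 5 and 6 gave 21, 18, 19, 22, 13 and 15 reversed genes. Left out in turn, sham library 3 and 5 and irradiated library 1, 2, 4, 5 and 6 gave 79, 66, 49, 185, 70, 46 and 61 new genes. Those 12 fits left out libraries of 1 week only. Without sham library 6 of 1 day, 244 genes were no longer changed, 51 reversed, 167 new and 50 persisting.

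**Figure D1:**
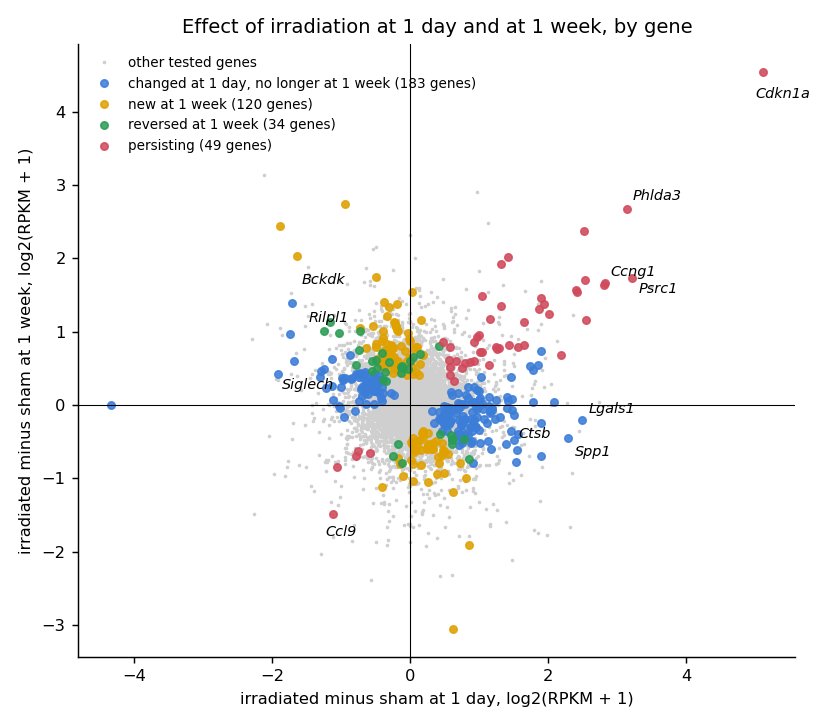
Change in log2(RPKM + 1), irradiated less sham, at 1 day (horizontal) and 1 week (vertical) for the 10132 genes tested, each point a gene, coloured by class. The 49 persisting genes lie along the diagonal, mostly up at both times. The 183 genes no longer changed lie along the horizontal axis, with medians at 1 week of -0.15 (up at 1 day) and 0.28 (down at 1 day). The 120 new genes lie near the vertical axis, with medians at 1 day of -0.24 (up at 1 week) and 0.26 (down at 1 week). The class rules, which ask for a difference between times, favour these opposite signs.

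Known targets of p53 made up 16 of the 49 persisting genes. Of 47 genes on the p53 target list 37 were tested. At 1 week 16 rose and 0 fell, with a median change of 0.56 over the 37 against 0.05 over all genes tested, of which 2.03% rose and 1.51% fell. At an unadjusted p under 0.05 limma gave 24 rises and 0 falls, and limma-voom on the reads gave 18 rises and 0 falls. Over all 10132 genes limma-voom called 423 up and 286 down. The share of all genes at an unadjusted p under 0.05 was not counted. Unadjusted counts of this and later lists therefore have no background share beside them. All 16 had also risen at 1 day, when 26 of the 37 rose and 1 fell with a median of 0.93. For 7 of the 37 the change at 1 week was called smaller than that at 1 day, for 0 it was called larger, and 2 (Plk2 and Rap2b) met the rule of genes no longer changed. The members were Cdkn1a, Phlda3, Dcxr, Psrc1, Ccng1, Sesn2, Ak1, Bbc3, Bax, Rps27l, Trp53inp1, Mdm2, Aen, Slc19a2, Zmat3 and Ephx1.

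The sequences before the start of 4 of these genes are shown because their levels separated the groups most clearly and p53 binds DNA near many of its targets. Cdkn1a and Psrc1 have 2 RefSeq starts each, and the one nearest the gene start in the deposited table was used. The sequences are the 250 bases upstream of the RefSeq transcript start (GRCm38.p6), written 5′ to 3′ on the strand of the gene, with matches to the p53 half-site in capitals. They lie at chr17:29090729-29090978 (plus strand) for Cdkn1a, chr1:135765835-135766084 (plus strand) for Phlda3, chr11:40755287-40755536 (minus strand) for Ccng1 and chr3:108383588-108383837 (plus strand) for Psrc1.
Cdkn1a: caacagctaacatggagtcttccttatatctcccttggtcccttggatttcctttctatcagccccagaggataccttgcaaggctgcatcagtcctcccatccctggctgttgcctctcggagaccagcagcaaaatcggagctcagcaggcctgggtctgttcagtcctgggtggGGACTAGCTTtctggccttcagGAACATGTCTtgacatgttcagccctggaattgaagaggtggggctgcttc
Ccng1: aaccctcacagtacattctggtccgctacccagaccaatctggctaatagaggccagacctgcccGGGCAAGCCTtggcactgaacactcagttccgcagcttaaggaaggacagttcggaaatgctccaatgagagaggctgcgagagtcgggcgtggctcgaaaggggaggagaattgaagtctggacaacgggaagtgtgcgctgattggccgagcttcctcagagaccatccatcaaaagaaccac
Phlda3: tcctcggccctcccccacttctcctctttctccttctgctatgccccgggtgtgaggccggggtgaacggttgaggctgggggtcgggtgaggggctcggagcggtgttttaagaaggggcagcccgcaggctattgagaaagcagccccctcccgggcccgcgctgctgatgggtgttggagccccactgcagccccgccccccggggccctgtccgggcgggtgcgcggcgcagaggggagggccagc
Psrc1: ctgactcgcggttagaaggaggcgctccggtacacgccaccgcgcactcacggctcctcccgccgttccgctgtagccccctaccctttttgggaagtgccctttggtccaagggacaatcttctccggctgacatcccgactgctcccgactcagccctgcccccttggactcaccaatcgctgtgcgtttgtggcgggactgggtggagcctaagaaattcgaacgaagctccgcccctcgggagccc

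The half-site, the 10-base p53 consensus of purines, a central CWWG core and pyrimidines, reads the same on both strands. The Cdkn1a window holds 2 matches, which begin 73 and 51 bases before the start and lie within 13 bases of each other, and the Ccng1 window holds 1, which begins 185 bases before the start. The Phlda3 and Psrc1 windows hold 0. A match was present in 7.13% of the 32851 windows of the RefSeq table and in 7.13% of the 5666 tested genes that have one, in 10 of the 38 persisting genes with a window (26.3%) and in 6 of the 14 persisting p53 targets with one (42.9%). The list was drawn from genes known as p53 targets, so these shares are a description. A match is no evidence of binding, and its absence says only that these letters are not in this window.

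Cdkn1a, which encodes the p21 inhibitor of the cyclin-dependent kinases and lies at chr17:29090979-29100722, was the gene with the largest rise at 1 week. Its level was 1.65, 2.54 and 6.16 RPKM in the sham libraries and 75, 83.3 and 116 RPKM in the irradiated ones. The lowest irradiated library stood far above the highest sham library, and the change was 4.54 ± 0.25 (adjusted p = 1.26e-17). At 2 h it had been 5.58 ± 0.25 and at 1 day 5.11 ± 0.25, and the difference between 1 week and 1 day did not pass its test (adjusted p = 0.372). Phlda3, which encodes a repressor of the kinase Akt (chr1:135766119-135769136), was measured at 0, 0 and 0.0985 RPKM in the sham libraries and 3.95, 5.12 and 8.19 RPKM in the irradiated ones. Of the sham libraries 5 had 0 reads and the other had 1 read. The change of 2.67 ± 0.18 (adjusted p = 8.42e-15) depends on the added pseudocount of 1 RPKM and is no bound on the fold. Psrc1, which encodes a protein of spindle microtubules, was low in sham microglia too, at 0, 0.0675 and 0.88 RPKM in the sham libraries and 2.1, 2.68 and 4.32 RPKM in the irradiated ones. The groups did not overlap, the change was 1.73 ± 0.18 (adjusted p = 4.44e-09), and it was smaller than the 3.21 ± 0.18 of 1 day (difference -1.48 ± 0.25, adjusted p = 0.000225).

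Ccng1, which encodes cyclin G1 (chr11:40748552-40755311), was at 7.91, 10.1 and 12.9 RPKM in the sham libraries and 29.3, 31.9 and 39.6 RPKM in the irradiated ones. All irradiated libraries were above all sham libraries, with a change of 1.64 ± 0.12 (adjusted p = 2.45e-14). Its rise had been 3.54 ± 0.12 at 2 h and 2.81 ± 0.12 at 1 day, and the drop from 1 day to 1 week was called (difference -1.18 ± 0.16, adjusted p = 7.64e-06). Sesn2, which encodes sestrin 2, a stress protein that restrains the growth kinase complex mTORC1, was at 1.51, 2.72 and 4.5 RPKM in the sham libraries and 7.31, 8.43 and 15.2 RPKM in the irradiated ones. The change was 1.54 ± 0.25 (adjusted p = 0.000133) without overlap. Mdm2, the ubiquitin ligase that degrades p53, was at 1.91, 3.38 and 4.21 RPKM in the sham libraries and 5.16, 6.6 and 7.0 RPKM in the irradiated ones. Its groups stood apart as well, and the rise of 0.81 ± 0.16 (adjusted p = 0.0022) followed rises of 2.96 ± 0.16 at 2 h and 1.43 ± 0.16 at 1 day. Trp53inp1, a nuclear stress protein of the p53 pathway, was at 1.06, 1.46 and 2.18 RPKM in the sham libraries and 2.43, 3.12 and 5.76 RPKM in the irradiated ones. The change was 0.82 ± 0.16 (adjusted p = 0.0022) and was called smaller than at 1 day (adjusted p = 0.0275).

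Members of the list that promote cell death were among those called. Bbc3, which encodes the BH3-only killer PUMA, was at 0.969, 1.51 and 2.72 RPKM in the sham libraries and 3.69, 5.23 and 5.9 RPKM in the irradiated ones. The change was 1.24 ± 0.20 (adjusted p = 0.000133). Its libraries did not overlap. Bax, which encodes the protein that opens the outer mitochondrial membrane, was at 8.21, 12.1 and 18.7 RPKM in the sham libraries and 19.7, 26.3 and 41.6 RPKM in the irradiated ones. The groups of Bax did not overlap either, but the change of 1.15 ± 0.34 (adjusted p = 0.045) was called in only 1 of the 12 fits that left a library out, the one without sham library 6, and the adjusted p reached 0.124 without irradiated library 1. Pmaip1, which encodes the BH3-only killer NOXA and was picked after its values were seen, had risen by 3.70 ± 0.29 at 2 h, and at 1 week its change was 0.68 ± 0.29 (adjusted p = 0.20).

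Among the other members, Dcxr, a reductase of sugars and dicarbonyls, was at 2.17, 6.73 and 10.4 RPKM in the sham libraries and 14.8, 21.7 and 47 RPKM in the irradiated ones. The change was 1.92 ± 0.36 (adjusted p = 0.0013). Ak1, adenylate kinase 1, was at 2.99, 4.59 and 5.69 RPKM in the sham libraries and 9.33, 12.6 and 15.7 RPKM in the irradiated ones. The change was 1.38 ± 0.17 (adjusted p = 2.73e-07). Rps27l, a ribosomal protein paralog, was at 0.892, 1.82 and 2.43 RPKM in the sham libraries and 3.98, 4.78 and 6.56 RPKM in the irradiated ones. The change was 1.13 ± 0.22 (adjusted p = 0.00157). In all 3 genes the lowest irradiated library exceeded the highest sham library. The smallest rises on the list were those of the nuclease Aen (0.78 ± 0.15), the thiamine transporter Slc19a2 (0.69 ± 0.17), the RNA-binding protein Zmat3 (0.60 ± 0.16) and the epoxide hydrolase Ephx1 (0.55 ± 0.11). Slc19a2 had risen by 2.18 ± 0.17 at 1 day, and its drop to 1 week was called (adjusted p = 6.25e-05), as was that of Ephx1 (adjusted p = 0.0223). The call of Zmat3 was lost without sham library 3 or 4 or irradiated library 1 or 5 (adjusted p of up to 0.0798, log2 change then 0.53). Of the 26 members that had risen at 1 day, 10 did not pass at 1 week. Examples are Plk2, a polo-like kinase (3.99 ± 0.24 at 2 h, 1.73 ± 0.24 at 1 day and 0.53 ± 0.24 at 1 week), and Gdf15, a secreted stress cytokine (2.73 ± 0.35, 1.70 ± 0.35 and 0.56 ± 0.35), both picked after their values were seen.

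**Figure D2:**
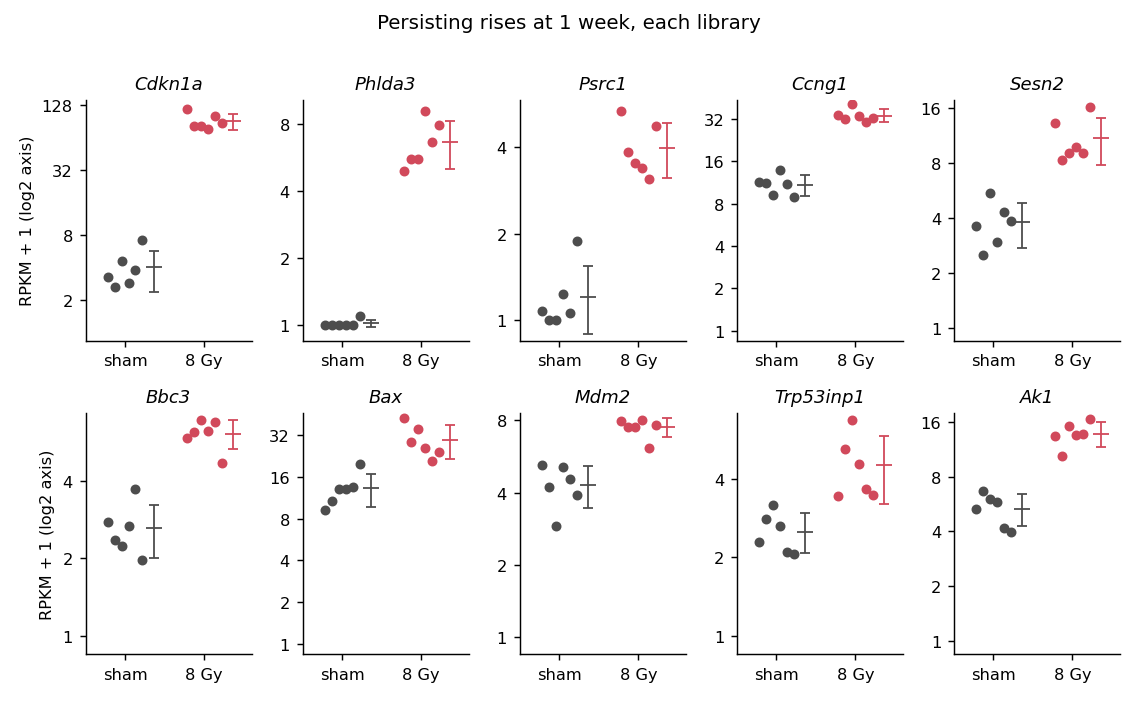
RPKM + 1 on a log2 axis in the 6 sham and 6 irradiated libraries of 1 week for 10 p53 targets that rose at 1 day and 1 week, each point a library and each bar the mean with its SD. The lowest irradiated library lies above the highest sham library in all 10 panels, and Cdkn1a has the widest gap, from at most 6.16 to 75 RPKM and above.

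Persisting genes outside the p53 list also included large rises. Fndc10 was at 0, 1.4 and 3.91 RPKM in the sham libraries and 7.46, 11.6 and 13.8 RPKM in the irradiated ones. The change was 2.37 ± 0.37 (adjusted p = 8.33e-05). Epha2, an ephrin receptor kinase, was at 0.471, 0.623 and 0.718 RPKM in the sham libraries and 2.99, 4.72 and 16.4 RPKM in the irradiated ones. Its sham libraries lay close together, its irradiated libraries spread widely above them, and the change was 2.02 ± 0.21 (adjusted p = 6.83e-09). Lacc1, an enzyme of purine metabolism in macrophages, was at 5.21, 6.46 and 8.06 RPKM in the sham libraries and 10.6, 13.5 and 15.1 RPKM in the irradiated ones. The change was 0.93 ± 0.15 (adjusted p = 0.000106). The groups of all 3 genes stood apart.

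On 6 of the other lists 1 persisting rise was no p53 target. Ccl2, the monocyte-attracting chemokine, was at 13.3, 14.9 and 22.2 RPKM in the sham libraries and 31, 39.9 and 69.6 RPKM in the irradiated ones. Every irradiated library exceeded every sham library, the change was 1.32 ± 0.30 (adjusted p = 0.0075), and the rise had been 1.48 ± 0.30 at 2 h and 1.86 ± 0.30 at 1 day. Tap1, which carries peptides to MHC class I, was at 5.73, 7.06 and 8.81 RPKM in the sham libraries and 11.1, 13.5 and 18 RPKM in the irradiated ones. The change was 0.86 ± 0.20 (adjusted p = 0.010), down from 2.10 ± 0.20 at 2 h. Gas6, the ligand that bridges dying cells to the receptors Axl and Mertk, was at 7.78, 8.28 and 10.3 RPKM in the sham libraries and 14.5, 17 and 23.9 RPKM in the irradiated ones. The change was 0.95 ± 0.21 (adjusted p = 0.00591). Nrros, which anchors latent TGF-beta on microglia, was at 9.77, 13.5 and 15.9 RPKM in the sham libraries and 19.5, 24.7 and 27.1 RPKM in the irradiated ones. The change was 0.79 ± 0.16 (adjusted p = 0.00289). Laptm5, a lysosomal membrane protein of blood-derived cells, was at 154, 155 and 173 RPKM in the sham libraries and 219.9, 229.8 and 234 RPKM in the irradiated ones. The change was 0.53 ± 0.09 (adjusted p = 0.000133), and the groups did not overlap. None of these 5 differed between 1 day and 1 week by its test, with adjusted p between 0.492 (Ccl2) and 0.953 (Gas6). The receptor gene Gpr84 rose by 0.73 ± 0.20 without overlap, and this call was lost without sham library 4 or 5 or irradiated library 1, 5 or 6 (adjusted p of up to 0.0925, log2 change then 0.66).

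Persisting genes of low RPKM, named after their values were seen, included some of the clearest separations. Sulf2, a sulfatase that edits heparan sulfate outside the cell, was at 0.679, 0.724 and 0.785 RPKM in the sham libraries and 3.15, 3.5 and 4.89 RPKM in the irradiated ones. The change was 1.46 ± 0.10 (adjusted p = 8.42e-15). Matn1, a matrilin of the extracellular matrix, was at 0, 0 and 0.0234 RPKM in the sham libraries and 1.57, 2.29 and 2.75 RPKM in the irradiated ones, where 5 sham libraries had 0 reads and 1 had a single read, and Fam212b was at 0, 0.0207 and 0.279 RPKM in the sham libraries and 1.73, 2.04 and 2.66 RPKM in the irradiated ones. Neither gene overlapped between groups, and both drops from 1 day to 1 week were called (adjusted p = 0.0126 and adjusted p = 0.000566). Mmp2, a matrix metalloproteinase, changed by 0.79 ± 0.15 after 1.56 ± 0.15 at 1 day, and Glipr1 by 0.76 ± 0.12 after 1.25 ± 0.12. Pla2g4a, which encodes the phospholipase that frees arachidonic acid, changed by 0.61 ± 0.09 (adjusted p = 3.89e-05), and Alox5, which encodes 5-lipoxygenase, by 0.87 ± 0.14 (adjusted p = 0.00017).

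Only 5 genes had fallen at both times, against 44 that had risen. The clearest was Ccl9, a chemokine of the CC family, at 58.5, 88 and 119.7 RPKM in the sham libraries and 20.8, 30.5 and 43.7 RPKM in the irradiated ones. All irradiated libraries were below all sham libraries, with a change of -1.48 ± 0.16 (adjusted p = 2.16e-08) after -1.12 ± 0.16 at 1 day. Rnf122, a ubiquitin ligase, was at 2.15, 2.52 and 3.49 RPKM in the sham libraries and 0.791, 1.38 and 1.68 RPKM in the irradiated ones. The change was -0.66 ± 0.15 (adjusted p = 0.010), also without overlap. The other 3 were the cytokine receptor subunit Il6st (-0.63 ± 0.18), the receptor Tnfrsf17 (-0.84 ± 0.24) and the lectin receptor Klrd1 (-0.70 ± 0.18), named because the count is small. The call of Il6st was lost without sham library 1, 2 or 3 or irradiated library 1, 4, 5 or 6 (adjusted p of up to 0.11, log2 change then -0.53), that of Tnfrsf17 without sham library 1, 2, 3 or 5 or irradiated library 1, 3, 4 or 5 (adjusted p of up to 0.118, log2 change then -0.77) and that of Klrd1 without sham library 2 or 4 or irradiated library 4 (adjusted p of up to 0.0823, log2 change then -0.62). Over all 49 persisting genes, the change at 1 week was smaller than at 1 day in 39, called smaller in 8 and called larger in 0, and 34 had also been called in the same direction at 2 h. The median of the 44 rises was 1.46 at 2 h, 1.30 at 1 day and 0.90 at 1 week. Rises shared by all 4 times numbered 32, and 30 when the 6 h contrast used sham libraries 5 and 6 alone.

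Rises at 1 day among genes of the disease-associated and interferon states were not called at 1 week. For this list and those of the next 3 paragraphs, the shares over all genes tested were 2.9% up and 1.39% down at 1 day. At 1 week these shares were 2.03% and 1.51%. Of 28 tested genes of the disease-associated list, 13 had risen at 1 day and 0 had fallen. At 1 week 0 rose and 3 fell (Ccl6, Ank and Clec7a), with a median of -0.19 after 0.61 at 1 day. At an unadjusted p under 0.05 limma gave 1 rise and 8 falls at 1 week, and limma-voom 1 and 7. The fall from 1 day to 1 week was called for 15 members, and 12 met the rule of genes no longer changed. Spp1, which encodes osteopontin, changed by 2.29 ± 0.24 at 1 day (adjusted p = 1.84e-09), and at 1 week it was at 0.229, 0.809 and 3.41 RPKM in the sham libraries and 0.192, 0.358 and 0.925 RPKM in the irradiated ones, which overlapped widely (change -0.45 ± 0.24, adjusted p = 0.325). Lpl, lipoprotein lipase, went from 1.89 ± 0.20 at 1 day to -0.24 ± 0.20 at 1 week (difference adjusted p = 2.43e-06). Lgals3, galectin 3, went from 1.503 ± 0.18 to -0.13 ± 0.18 (difference adjusted p = 6.01e-05), and Cst7, cystatin F, from 1.15 ± 0.18 to -0.11 ± 0.18 (difference adjusted p = 0.0016). The lectin gene Lgals1, which is not on the list, was another large drop, from 2.49 ± 0.26 to -0.20 ± 0.26 (adjusted p = 7.01e-06), as was C3ar1, the receptor for complement C3a, from 1.48 ± 0.12 to 0.09 ± 0.12 (adjusted p = 1.13e-06).

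Among interferon-stimulated genes 18 of 27 tested members were called by limma at 1 day and 0 at 1 week. All 18 had risen. The median over the 27 was 0.95 at 1 day and 0.20 at 1 week. At an unadjusted p under 0.05 there were 6 rises and 1 fall at 1 week, and limma-voom called 1 rise and 0 falls. The drop was called for 10 members. Ifit3, an antiviral effector, was at 0.686, 1.15 and 2.08 RPKM in the sham libraries and 1.11, 2.0 and 2.96 RPKM in the irradiated ones at 1 week, with a change of 0.48 ± 0.28 (adjusted p = 0.365) after 1.79 ± 0.28 at 1 day. Irf9, a subunit of the interferon-activated transcription factor complex, went from 0.90 ± 0.23 to -0.48 ± 0.23 (difference adjusted p = 0.00872). Dhx58, a cytosolic RNA sensor of the RIG-I family, went from 1.89 ± 0.23 to -0.70 ± 0.23 (difference adjusted p = 1.13e-06).

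Lysosomal genes lost most of their 1 day calls as well. Of 35 tested, 11 had risen and 1 had fallen at 1 day. At 1 week 2 rose (Laptm5 and Atp6v0d1) and 3 fell (Lipa and Lamp2 among them), with a median of -0.01 that turns positive, at 0.01, when totals leave out mitochondrial genes. Limma-voom called 4 rises and 5 falls at 1 week. Limma gave 1 to 3 rises and 0 to 4 falls over the 12 fits that left out a library. The drop was called for 11 members. Ctsb, the protease cathepsin B, had risen by 1.46 ± 0.11 at 1 day. At 1 week it was at 126, 134 and 153 RPKM in the sham libraries and 97.1, 107 and 113 RPKM in the irradiated ones, so every irradiated library was below every sham library, but the change of -0.35 ± 0.11 missed the threshold (adjusted p = 0.0628). Ctsc, which encodes cathepsin C, went from 0.75 ± 0.10 to -0.25 ± 0.10 (difference adjusted p = 1.24e-05). The call of Atp6v0d1, a proton pump subunit (0.44 ± 0.13), was lost without sham library 1, 3, 4 or 5 or irradiated library 1, 4, 5 or 6 (adjusted p of up to 0.144, log2 change then 0.37).

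Of the homeostatic genes that had fallen at 1 day, 6 met the rule of genes no longer changed. Of 30 tested, 1 had risen and 10 had fallen at 1 day, with a median of -0.24. At 1 week 3 rose (Fcrls, Tmem119 and Gpr84) and 2 fell by limma, with 4 rises and 4 falls by limma-voom and a median of 0.06, and the change from 1 day to 1 week was called upward for 9 and downward for 1. Over the 12 fits that left out a library, limma gave 1 to 4 rises and 0 to 4 falls at 1 week on this list. Siglech, a sialic acid-binding lectin of microglia, was at 113, 145 and 159 RPKM in the sham libraries and 146, 147 and 152 RPKM in the irradiated ones at 1 week. The irradiated libraries lay within the sham range, with a change of 0.07 ± 0.11 (adjusted p = 0.795) after -1.12 ± 0.11 at 1 day. Sall1, the transcription factor that maintains microglial identity, was at 0.42 ± 0.18 after -0.78 ± 0.18 (difference adjusted p = 0.00333), and Cx3cr1, on which the cells were sorted, at 0.10 ± 0.09 after -0.42 ± 0.09 (difference adjusted p = 0.012). P2ry12, the ADP receptor that guides microglial processes, had been at -0.79 ± 0.13 and was at -0.31 ± 0.13 (adjusted p = 0.181), but the difference between the times was not called (adjusted p = 0.121). The same was true of Csf1r, the receptor for the growth factor CSF1 (-0.92 ± 0.21 and -0.16 ± 0.21, difference adjusted p = 0.112).

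**Figure D3:**
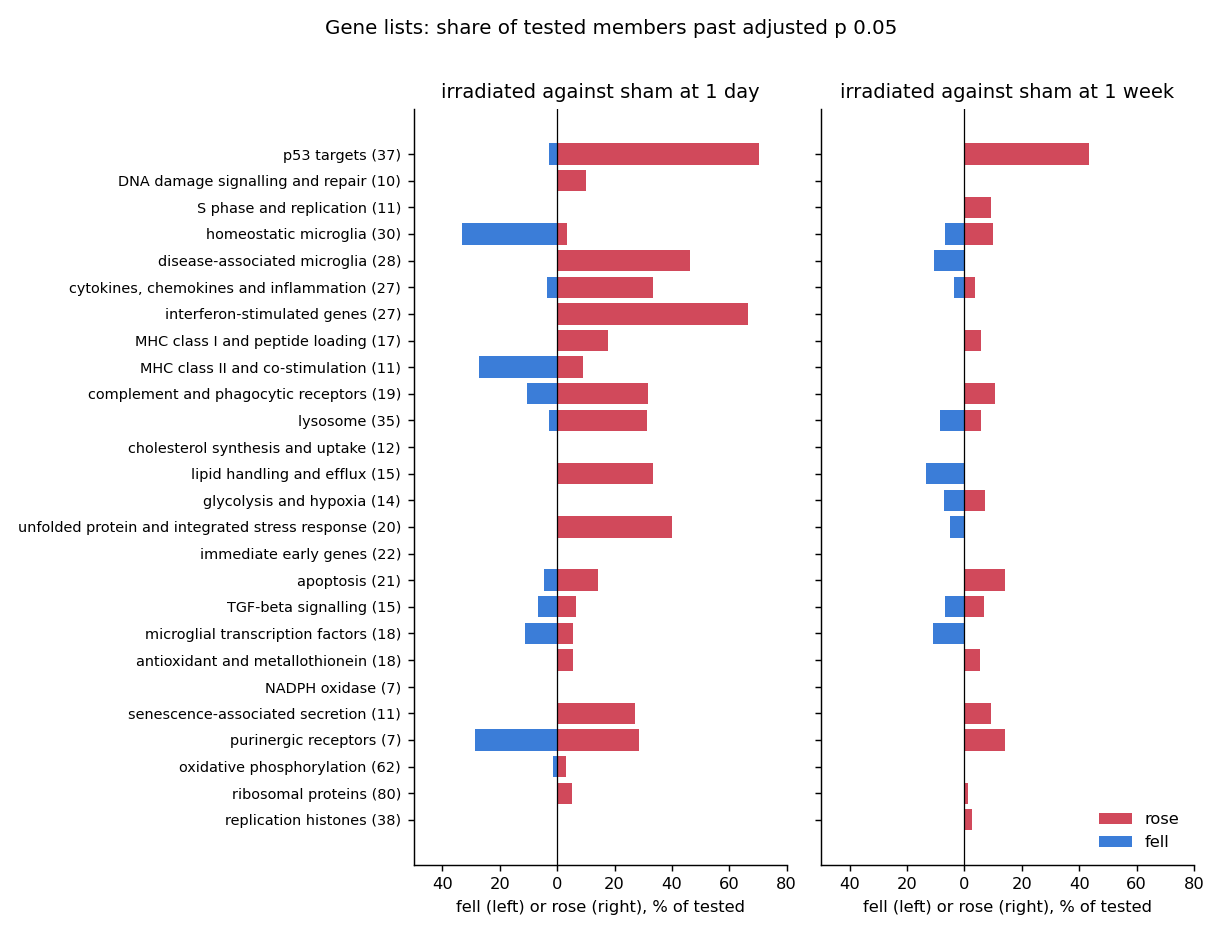
Percent of the tested members of each gene list that rose or fell at 1 day and at 1 week (adjusted p under 0.05), for lists with 5 or more tested members. At 1 week p53 targets rose in 16 of 37, while the interferon list had 0 calls of 27 after 18 at 1 day and the disease-associated list had 0 rises of 28 after 13.

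Reversed genes were fewer and rested more on single libraries. In 7 of the 34 the call at 1 week held in each of the 12 fits that left out a library. Of the 34, 17 reversed against 2 h and 19 against 1 day, and 12 of the latter had been down at 1 day. Il13ra1, a receptor subunit for interleukin 13, had risen by 0.46 ± 0.13 at 2 h. At 1 week it was at 4.02, 4.85 and 7.02 RPKM in the sham libraries and 1.84, 2.67 and 3.65 RPKM in the irradiated ones, all irradiated libraries below all sham libraries. The change was -0.69 ± 0.13 (adjusted p = 0.0012). Clec7a, the beta-glucan receptor Dectin-1 and a member of the disease-associated list, had also risen at 2 h (0.59 ± 0.19) and fell at 1 week by 0.79 ± 0.19 (adjusted p = 0.0127), with overlap.

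Other genes reversed from lower to higher. Alox5ap, which encodes the protein that presents arachidonic acid to 5-lipoxygenase, had been at -0.44 ± 0.12 at 2 h and 0.00 ± 0.12 at 1 day. At 1 week it was at 4.46, 5.25 and 5.91 RPKM in the sham libraries and 6.57, 8.71 and 9.78 RPKM in the irradiated ones, without overlap, a change of 0.60 ± 0.12 (adjusted p = 0.0022). Scamp5, a membrane protein of secretory vesicles, was at 6.68, 8.87 and 10.4 RPKM in the sham libraries and 13.7, 14.1 and 17 RPKM in the irradiated ones. The change was 0.70 ± 0.13 (adjusted p = 0.00143) after -0.53 ± 0.13 at 2 h. C2cd2l, a lipid transfer protein at contacts of the endoplasmic reticulum and the plasma membrane, changed by 0.81 ± 0.17 after -0.72 ± 0.17 at 2 h. Rilpl1, a protein that binds Rab GTPases, was at 3.98, 5.23 and 8.6 RPKM in the sham libraries and 8.65, 11.7 and 18.6 RPKM in the irradiated ones. The change was 1.01 ± 0.21 (adjusted p = 0.00334) after -0.73 ± 0.21 at 1 day. The groups of all 4 stood apart. Csad, an enzyme of taurine synthesis, changed by 0.75 ± 0.18 after -0.75 ± 0.18 at 1 day, Rnf130, a ubiquitin ligase, by 0.33 ± 0.08 after -0.35 ± 0.08, and Ogfrl1 by 0.49 ± 0.12 after -0.42 ± 0.12 at 2 h. These 3 calls were lost without sham library 4 (adjusted p of up to 0.0638, log2 change then 0.66), without irradiated library 6 (adjusted p of up to 0.0535, log2 change then 0.29) and without sham library 4 (adjusted p of up to 0.0529, log2 change then 0.46), in that order.

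The 7 genes that had been up at 1 day and fell at 1 week were Abcg1, Lipa, Canx, Sppl2a, Serpine2, Smim3 and Mgea5. Abcg1, which exports cholesterol, went from 0.85 ± 0.19 to -0.74 ± 0.19 (difference adjusted p = 0.000208), Lipa, the lysosomal acid lipase, from 0.60 ± 0.15 to -0.54 ± 0.15 (difference adjusted p = 0.00070) and Canx, the chaperone calnexin, from 0.60 ± 0.13 to -0.46 ± 0.13 (difference adjusted p = 0.000273). Their 1 week calls did not hold over all 12 fits. That of Abcg1 was lost without sham library 3, 4 or 5 or irradiated library 4, 5 or 6 (adjusted p of up to 0.0654, log2 change then -0.70), that of Lipa without sham library 1, 3, 4 or 5 or irradiated library 1, 4, 5 or 6 (adjusted p of up to 0.113, log2 change then -0.48) and that of Canx without sham library 1, 3 or 4 or irradiated library 1, 4, 5 or 6 (adjusted p of up to 0.141, log2 change then -0.37). Smim3, picked after its values were seen, went from 0.78 ± 0.11 to -0.46 ± 0.11 without overlap, and its call was lost without sham library 4 (adjusted p of up to 0.0638, log2 change then -0.42). The calls of Sppl2a, Serpine2 and Mgea5 were lost in 5, 8 and 9 of the 12 fits (adjusted p of up to 0.0963, 0.133 and 0.173).

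**Figure D4:**
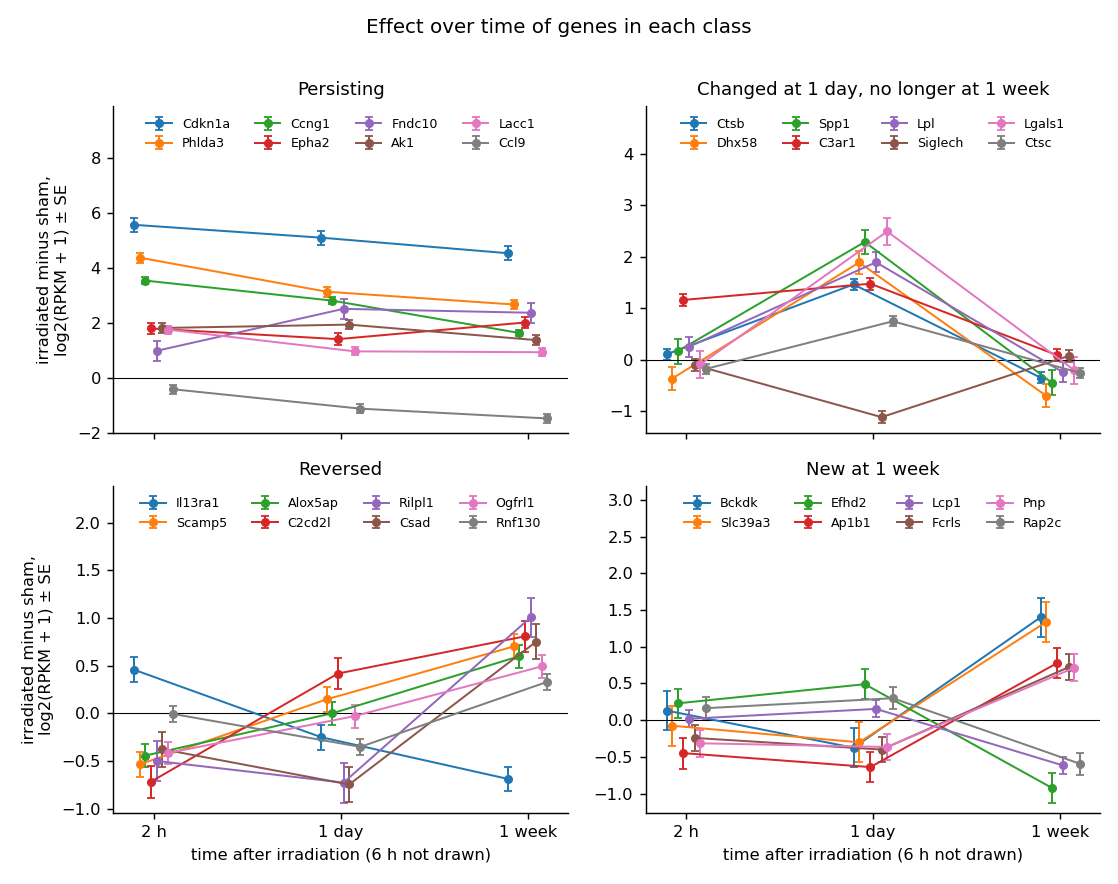
Change in log2(RPKM + 1), irradiated less sham, with its SE, at 2 h, 1 day and 1 week for up to 8 named genes of each class, 1 panel per class. Persisting genes keep their sign, and reversed genes cross 0. Genes no longer changed have a smaller change at 1 week than at 1 day, some of them with the opposite sign (Ctsb from 1.46 to -0.35). New genes were not called at 2 h or 1 day but did not all start from 0. Over the whole class, the median at 1 day was -0.24 for new rises and 0.26 for new falls, signs that the rule of the class favours.

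New genes were the largest class of called genes at 1 week, 33.4% of the 359. In 47 of the 120 the groups did not overlap, and in 41 the call held in each of the 12 fits. The median change at 1 day was -0.24 for the new rises and 0.26 for the new falls, each opposite in sign to 1 week. The rule of the class, which asks for a difference from the earlier times, favours such opposite signs, so they are no separate result. At 6 h 13 of them had been called in the same direction and 20 in the opposite one, but 0 and 0 when sham libraries 5 and 6 alone were used there. Bckdk, the kinase that switches off breakdown of branched-chain amino acids, was at 4.14, 4.59 and 5.53 RPKM in the sham libraries and 9.33, 10.9 and 41.4 RPKM in the irradiated ones. All irradiated libraries exceeded all sham libraries, one of them (library 4) by far, with a change of 1.40 ± 0.27 (adjusted p = 0.00152) where 1 day had shown -0.38 ± 0.27. Slc39a3, a zinc importer, was at 1.05, 1.89 and 2.71 RPKM in the sham libraries and 3.12, 5.11 and 12.6 RPKM in the irradiated ones. The change was 1.34 ± 0.27 (adjusted p = 0.00283) without overlap. Fcrls, an Fc receptor-like protein used as a marker of microglia, was at 296, 375 and 409 RPKM in the sham libraries and 475, 579 and 721 RPKM in the irradiated ones. The groups did not overlap, and the change of 0.72 ± 0.17 (adjusted p = 0.0135) followed -0.40 ± 0.17 at 1 day. Tmem119, another microglial marker, was at 634, 718 and 851 RPKM in the sham libraries and 898, 1075 and 1577 RPKM in the irradiated ones without overlap. The change was 0.65 ± 0.19 (adjusted p = 0.0369), and this call was lost without sham library 1, 2, 3, 4 or 5 or irradiated library 1, 5 or 6 (adjusted p of up to 0.125, log2 change then 0.56).

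Of 28 genes of S phase and replication 11 passed the filter on RPKM, and of 70 replication histones 38. The filter is per base of the gene span, so a gene left out is not thereby shown to be low. Of all genes tested 2.03% rose. Mcm6, a subunit of the replicative helicase, was at 0.307, 0.407 and 0.73 RPKM in the sham libraries and 0.927, 1.39 and 2.33 RPKM in the irradiated ones. Every irradiated library was above every sham library, with a change of 0.75 ± 0.14 (adjusted p = 0.000912), against -0.35 ± 0.14 at 2 h and -0.37 ± 0.14 at 1 day. It was the only call among 11 tested genes of S phase and replication, whose median was 0.20. Hist1h1b, a linker histone made in S phase, was at 0, 0 and 0.916 RPKM in the sham libraries and 0.41, 3.63 and 4.99 RPKM in the irradiated ones. Irradiated library 2 lay within the sham range and the other 5 above it, and the change was 1.748 ± 0.43 (adjusted p = 0.0142), the only call among 38 tested replication histones. Of the mitosis list 3 of 26 genes were tested and 0 were called by limma or limma-voom, with 1 rise at an unadjusted p under 0.05. Reads summed over all 26 were 61.9 to 122 RPM in the sham and 162 to 254 RPM in the irradiated libraries, without overlap. For the 28 S phase genes the sums were 377 to 438 and 467 to 1420 RPM, also without overlap, with an irradiated median of 582 RPM. Those of the 70 replication histones overlapped (406 to 839 and 590 to 1003 RPM). These sums include genes that were not tested, and no test was run on them. Such separation was not particular to these lists. Sums were higher without overlap for p53 targets, complement and phagocytic receptors, apoptosis and senescence-associated secretion. They were lower without overlap for lipid handling and TGF-beta signalling. Ube2c, the ubiquitin-conjugating enzyme of the anaphase-promoting complex, was at 0.178, 0.559 and 2.82 RPKM in the sham libraries and 0.511, 1.46 and 2.52 RPKM in the irradiated ones (change 0.47 ± 0.22, adjusted p = 0.249).

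Further new rises had calls that depended on a library or lay near the threshold. Casp8, the initiator protease of death receptor signalling, was at 2.24, 3.08 and 3.84 RPKM in the sham libraries and 4.33, 6.11 and 7.2 RPKM in the irradiated ones without overlap. The change was 0.77 ± 0.19 (adjusted p = 0.0142), and the call was lost without sham library 4 (adjusted p of up to 0.0558, log2 change then 0.71). Pnp, purine nucleoside phosphorylase, changed by 0.71 ± 0.18 without overlap, and the call was lost without irradiated library 4 or 5 (adjusted p of up to 0.0761, log2 change then 0.63). Stab1, a scavenger receptor, was at 17.1, 22.5 and 29.3 RPKM in the sham libraries and 30.6, 41.5 and 44.7 RPKM in the irradiated ones. The change was 0.75 ± 0.15 (adjusted p = 0.00177) without overlap. It had not been called at 2 h or 1 day, but its change at 1 week minus the mean of those times did not pass (adjusted p = 0.0708), so it is not among the new genes. Lars2, the mitochondrial leucyl-tRNA synthetase, whose mouse transcript shares sequence with mt-Rnr2, was at 9.92, 26.7 and 43.7 RPKM in the sham libraries and 49.8, 105 and 162 RPKM in the irradiated ones and was picked after its values were seen. Its change of 2.03 ± 0.52 (adjusted p = 0.0204) stands beside the higher mt-Rnr2 share given above, whose part in it was not tested, and the call was lost without sham library 4 or 5 or irradiated library 1 or 5 (adjusted p of up to 0.0759, log2 change then 1.81). The change of Lars2 at 1 week was 3.67 above that at 1 day, which lay below 0 but was not called.

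The largest falls at 1 week were mostly changes that had not been called at 1 day. Ccl6, a CC chemokine on the disease-associated list, was at 32.9, 57.7 and 69.5 RPKM in the sham libraries and 10.9, 15.9 and 29.5 RPKM in the irradiated ones, all irradiated libraries below all sham libraries. Its change was -1.63 ± 0.28 (adjusted p = 0.00030), after -0.82 ± 0.28 at 1 day that missed the threshold (adjusted p = 0.092). The difference between the times was not called (adjusted p = 0.229). C1qbp, a protein of the mitochondrial matrix that binds complement C1q, was at 9.6, 13.3 and 17.7 RPKM in the sham libraries and 3.88, 5.32 and 9.28 RPKM in the irradiated ones. It did not overlap, and its change of -1.05 ± 0.24 (adjusted p = 0.00688) differed from the 0.26 ± 0.24 of 1 day (adjusted p = 0.0143). Vhl, the subunit of a ubiquitin ligase that degrades hypoxia-inducible factors, was at 21.6, 26.6 and 37.2 RPKM in the sham libraries and 6.49, 13 and 24 RPKM in the irradiated ones, with some overlap. The change was -1.04 ± 0.22 (adjusted p = 0.00373). Fam210b, a mitochondrial membrane protein, was at 2.62, 5.37 and 6.51 RPKM in the sham libraries and 0.823, 1.69 and 3.92 RPKM in the irradiated ones. The change was -1.11 ± 0.25 (adjusted p = 0.00591).

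Further named genes that fell belong to no list. Efhd2, a calcium-binding protein on actin, was at 45.6, 53.5 and 62.4 RPKM in the sham libraries and 22.5, 26.4 and 39.8 RPKM in the irradiated ones without overlap. Its change of -0.92 ± 0.20 (adjusted p = 0.00544) followed a change of 0.49 ± 0.20 at 1 day, and the difference was called (adjusted p = 0.0016). Lcp1, the actin-bundling plastin of white blood cells, was at 11.2, 13 and 14.9 RPKM in the sham libraries and 6.13, 8.56 and 10.6 RPKM in the irradiated ones, again without overlap. The change was -0.62 ± 0.12 (adjusted p = 0.00109). Marcks, a membrane protein that binds actin and calmodulin, was at 199.7, 233 and 321 RPKM in the sham libraries and 114, 134 and 204 RPKM in the irradiated ones, where only the highest irradiated library reached into the sham range. The change was -0.72 ± 0.13 (adjusted p = 0.000817). Tpm3, a tropomyosin, changed by -0.79 ± 0.18 (adjusted p = 0.010). Arl8b, a GTPase that moves lysosomes along microtubules, changed by -0.71 ± 0.15 (adjusted p = 0.00544), and its difference from the 0.40 ± 0.15 of 1 day was called (adjusted p = 0.00115).

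Pdk1, the kinase that restrains entry of pyruvate into the mitochondrial cycle, changed by -0.78 ± 0.16 (adjusted p = 0.00237) and had also been down at 2 h (-0.68 ± 0.16). Ube2j1, a ubiquitin-conjugating enzyme of the endoplasmic reticulum, and Amz1, a metallopeptidase, were lower at 1 week (-0.70 ± 0.13 and -0.70 ± 0.14) without overlap and at 2 h (-0.60 ± 0.13 and -0.77 ± 0.14), but not called at 1 day. Cd14, the co-receptor for lipopolysaccharide, was at 367, 399 and 531 RPKM in the sham libraries and 189, 208 and 283 RPKM in the irradiated ones, all irradiated libraries below all sham libraries. The change was -0.97 ± 0.25 (adjusted p = 0.023). The call of Cd14 was lost without sham library 4 or irradiated library 5 (adjusted p of up to 0.0726, log2 change then -0.90). Cst3, which encodes the secreted protease inhibitor cystatin C and was picked after its values were seen, was at 15439, 20706 and 32123 RPKM in the sham libraries and 5411, 7931 and 14613 RPKM in the irradiated ones. The change was -1.35 ± 0.37 (adjusted p = 0.0308) without overlap. The call of Cst3 was lost without sham library 1, 4 or 5 or irradiated library 1, 4, 5 or 6 (adjusted p of up to 0.0955, log2 change then -1.23).

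**Figure D5:**
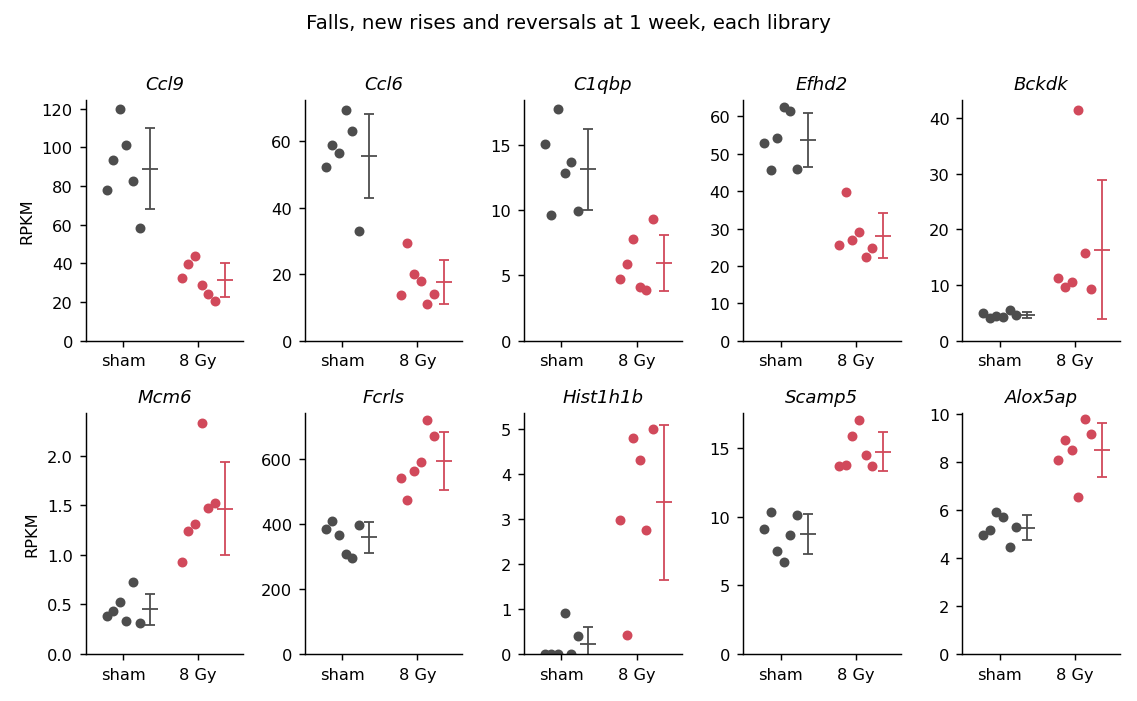
RPKM in the 6 sham and 6 irradiated libraries of 1 week for 10 genes that fell, reversed or were new at 1 week, each point a library and each bar the mean with its SD, on linear axes of their own. Ccl9 and Ccl6 lie lower in all 6 irradiated libraries, and Mcm6 and Fcrls higher in all 6, while Hist1h1b has 1 irradiated library at the sham level.

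Each of the other gene lists had at most 3 calls at 1 week. Over all 10132 genes tested, limma called 2.03% up and 1.51% down at 1 week, and 2.9% up and 1.39% down at 1 day. Limma-voom called 423 up and 286 down at 1 week. The list counts here and in the next 3 paragraphs were not tested against these shares. Of 27 tested cytokines and inflammatory genes 1 rose (Ccl2) and 1 fell (Cd14), with a median of 0.22, where 9 had risen at 1 day. Limma-voom called 3 rises and 1 fall on this list, and 7 rises and 1 fall had an unadjusted p under 0.05. Tnf, the cytokine tumour necrosis factor, was at 1.88, 3.5 and 5.46 RPKM in the sham libraries and 6.27, 12.1 and 22.3 RPKM in the irradiated ones, so the groups did not overlap, but its change of 1.38 ± 0.45 missed the threshold (adjusted p = 0.0744). The chemokine gene Cxcl10, picked after its values were seen, had been at 5.76 ± 0.43 at 2 h and was at 0.78 ± 0.43 (adjusted p = 0.342). Of MHC class I and peptide loading genes 1 of 17 rose (Tap1) and 0 fell (2 rises and 2 falls by limma-voom), and H2-K1, a classical class I heavy chain, was at 0.10 ± 0.25 (adjusted p = 0.89) after 1.43 ± 0.25 at 2 h. Of MHC class II and co-stimulation genes 0 of 11 were called by limma or limma-voom, with 3 rises and 2 falls at an unadjusted p under 0.05. Among complement and phagocytic receptor genes 2 of 19 rose (Stab1 and Gas6) and 0 fell by limma. Limma-voom called 7 rises and 1 fall on this list, and 7 rises and 3 falls had an unadjusted p under 0.05.

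Among lists of metabolism, 0 of 12 cholesterol genes were called by limma (2 rises and 1 fall at an unadjusted p under 0.05, and 2 rises with limma-voom), and 2 of 15 lipid handling genes fell, Abcg1 and Mylip. Mylip, the ubiquitin ligase that degrades the LDL receptor, was at 20.5, 25.5 and 28.3 RPKM in the sham libraries and 13.4, 18.1 and 20.6 RPKM in the irradiated ones. The change was -0.51 ± 0.11 (adjusted p = 0.00537). Of 62 oxidative phosphorylation genes encoded in the nucleus 0 were called by limma, with 8 rises and 3 falls at an unadjusted p under 0.05 and with 2 rises and 1 fall by limma-voom. Of 80 ribosomal protein genes 1 was called, Rps27l. Of 14 glycolysis and hypoxia genes 1 rose, the lactate transporter Slc16a3 (0.79 ± 0.23), and 1 fell, Pdk1. The call of Slc16a3 was lost without sham library 3, 4 or 5 or irradiated library 1, 4, 5 or 6 (adjusted p of up to 0.155, log2 change then 0.65). Antioxidant and metallothionein genes gave 1 rise of 18, the peroxidase Prdx2 (1.46 ± 0.39), lost without sham library 2, 3 or 4 or irradiated library 5 or 6 (adjusted p of up to 0.113, log2 change then 1.19).

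Immediate early genes had 0 calls of 22 by limma, with 2 rises and 4 falls at an unadjusted p under 0.05 and 1 rise and 3 falls by limma-voom. Their median was -0.42, against 0.05 over all genes. In 5 of the 22 every irradiated library was below every sham library, which held for 1.12% of all genes tested. Jun, a subunit of the transcription factor AP-1, was one of them, at 297, 311 and 402 RPKM in the sham libraries and 193, 225 and 295 RPKM in the irradiated ones (change -0.48 ± 0.28, adjusted p = 0.382), while Fos, its partner, overlapped (change 0.30 ± 0.35, adjusted p = 0.714). Of 20 genes of the unfolded protein and integrated stress response, of which 8 had risen at 1 day, 1 fell (Canx). Apoptosis genes gave 3 rises of 21, Casp8, Bax and Bid. Bid, the BH3-only protein cut by caspase 8, changed by 0.45 ± 0.13 after -0.60 ± 0.13 at 2 h, and the call was lost without sham library 2, 3, 4, 5 or 6 or irradiated library 1, 4, 5 or 6 (adjusted p of up to 0.136, log2 change then 0.40).

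Of 15 TGF-beta signalling genes 1 rose (Nrros) and 1 fell, Ski, a co-repressor of SMAD proteins, at 12.5, 14.7 and 17 RPKM in the sham libraries and 7.95, 9.43 and 11.4 RPKM in the irradiated ones without overlap (change -0.57 ± 0.11, adjusted p = 0.00157). Ski had also fallen at 2 h (-0.35 ± 0.11). Of 18 microglial transcription factors 2 fell by limma, among them Cebpa (-0.57 ± 0.16), a regulator of macrophage development. The call of Cebpa was lost without sham library 2, 3, 4 or 5 or irradiated library 1, 4, 5 or 6 (adjusted p of up to 0.128, log2 change then -0.50). Limma-voom called 6 falls and 0 rises among the 18, and 8 falls and 1 rise had an unadjusted p under 0.05. The limma count of falls on this list was 0 without sham library 3, 4 or 5 or irradiated library 1, 4 or 5, and 5 without irradiated library 3. The purinergic list gave 1 rise of 7, the ATP-gated channel P2rx7 (0.32 ± 0.08), lost without sham library 3 or irradiated library 1 or 4 (adjusted p of up to 0.075, log2 change then 0.28). The list of genes secreted in senescence, with the arrest gene Cdkn1a on it, gave 1 rise of 11, Cdkn1a itself. Of 10 DNA damage signalling and repair genes and 7 NADPH oxidase genes 0 were called by limma or limma-voom, and 0 passed an unadjusted p under 0.05. Ank, a membrane protein of pyrophosphate export on the disease-associated list, was at 1.34, 1.7 and 1.94 RPKM in the sham libraries and 0.74, 0.842 and 0.964 RPKM in the irradiated ones without overlap (change -0.53 ± 0.11, adjusted p = 0.00356).

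The 1 week calls can be set beside those of the earlier times, each of which had its own sham animals. The 44 shared rises were 14.97% of the rises at 1 day and 21.4% of those at 1 week. The 5 shared falls were 3.55% of the falls at 1 day and 3.27% of those at 1 week. In opposite directions, 12 genes had fallen at 1 day and rose at 1 week, and 7 had risen at 1 day and fell at 1 week. With 2 h, 46 rises and 35 falls were shared, 22.3% and 22.9% of those at 1 week. Of the 359 genes, 173 were called at 1 week and at no other time. The absence of an earlier call does not show that such a gene was unchanged before, and only the 120 genes called new passed a test of the difference.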

How the data were processed

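Per the labels, total RNA of Cx3cr1-sorted hippocampal microglia was made into libraries (QIAseq FX single cell kit), 1 per animal and 6 per group. The submitters' processing notes name STAR 2.6.1d, featureCounts 1.5.1, FastQC 0.11.8 and bcl2fastq 2.20.0, and the builds GRCm38 and mm10. The annotation, the counting settings and the use of strand are not given in the sources used here. The deposited values are RPKM of 48526 genes made by the authors, whose 719081 values above 0 were whole reads (100% within 0.001 reads) divided by the gene span with introns and by 1 of the 48 library totals. That total was the library's own for 2.05% of values. Reads were recovered and RPKM recomputed with each library's own total. The match was ambiguous for 95 genes, none above 16 reads.

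Genes with RPKM of 1 or more in 6 or more libraries (10132) were fitted with limma 3.58.1 (R 4.3.3) on log2(RPKM + 1), over 8 group means of all 48 libraries with eBayes trend and robust and 40 residual degrees of freedom. Tests are two-sided with Benjamini-Hochberg adjustment and a threshold of 0.05. The replicate is the animal, and a share of reads has the precision of 1889343 to 3856777 reads per library. Genes named are the 12 largest rises and 12 largest falls at 1 week that pass in each of the 12 fits leaving out a library (mean RPKM of 5 or more in the higher group, without predicted, small RNA or mitochondrial genes), up to 8 per class by smallest adjusted p, up to 4 called members per list (or the 2 highest where none was called) and a panel. Others are said to be picked after their values were seen. Some genes that met the rule are not reported here. The members, lists, rules and tests were chosen with earlier results of these data known. The fit and the recovery were tested on simulated data. Alternatives were other pseudocounts, filters, scalings and trends, limma-voom on the recovered reads, the values as deposited, a replicate block, libraries left out and the 1 week libraries alone. Replicate numbers of the labels were not used to pair animals. Upstream sequences are from RefSeq (GRCm38.p6).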

Additional observations from a re-analysis of the deposited data

Results flagged for a closer look

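The groups of 6 libraries examined at 1 week, sham and irradiated, covered the named genes, the summed markers, the mitochondrial share, the library total and the number of genes detected. Of these 316 groups, 28 had 1 library apart from the other 5 by Dixon's ratio at the 95% level, which is 8.86%. Chance gives such a library in about 1 group in 20. Among sham libraries, 1 lay above the other 5 for these genes. Phlda3 was at 0.098 RPKM in library 6 (others 0), Arl8b was at 21.8 RPKM in library 4 (others 12.7 to 15.5) and Psrc1 was at 0.88 RPKM in library 6 (others 0 to 0.232). Laptm5 was at 173 RPKM in library 6 (others 154 to 157), Plac8 was at 1.74 RPKM in library 3 (others 0.084 to 0.378) and Fam212b was at 0.279 RPKM in library 2 (others 0 to 0.064). Matn1 was at 0.023 RPKM in library 5 (others 0) and Aen was at 0.551 RPKM in library 3 (others 0.272 to 0.354). Among sham libraries, 1 lay below the other 5 for these genes. Fam210b was at 2.62 RPKM in library 5 (others 4.88 to 6.51), Cenpa was at 0.465 RPKM in library 4 (others 0.854 to 1.11) and Cx3cr1 was at 22.2 RPKM in library 3 (others 28 to 31.3). Mmp2 was at 0.446 RPKM in library 3 (others 1.11 to 1.64). Among irradiated libraries, 1 lay above the other 5 for these genes. Bckdk was at 41.4 RPKM in library 4 (others 9.33 to 15.7), Ccl2 was at 69.6 RPKM in library 1 (others 31 to 41.5) and Apex1 was at 18.5 RPKM in library 5 (others 1.62 to 3.67). Cd14 was at 283 RPKM in library 2 (others 189 to 216), Cox4i1 was at 123 RPKM in library 1 (others 78.5 to 89.5) and Cd74 was at 7.22 RPKM in library 1 (others 0.68 to 2.04). Among irradiated libraries, 1 lay below the other 5 for these genes. Ndufb10 was at 17.9 RPKM in library 3 (others 28.1 to 34.7), Hist1h1b was at 0.41 RPKM in library 2 (others 2.75 to 4.99) and Hbb-bs was at 1.14 RPKM in library 3 (others 16.4 to 44.5). Mdm2 was at 5.16 RPKM in library 5 (others 6.51 to 7.0), Matn1 was at 1.57 RPKM in library 6 (others 2.27 to 2.75) and Rnf122 was at 0.791 RPKM in library 4 (others 1.36 to 1.68). Summed erythrocyte markers stood above the rest at 143 RPM in sham library 4 (others 3.67 to 38.7), neural progenitor markers stood above the rest at 137 RPM in sham library 4 (others 42.8 to 71.6) and neural progenitor markers stood above the rest at 444 RPM in irradiated library 3 (others 16.4 to 73.3). Summed neuronal markers stood above the rest at 365 RPM in irradiated library 4 (others 0 to 8.54).

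For 56 of the 145 named genes the change at 1 week differed from that at 1 day by the test of the difference itself (limma, adjusted p under 0.05). Each value is the 1 week change minus the 1 day change on the log2(RPKM + 1) scale. Downward from 1 day to 1 week, the difference was -1.18 for Ccng1, -1.48 for Psrc1, -0.83 for Trp53inp1, -0.84 for Fam212b, -0.83 for Matn1, -0.77 for Mmp2 and -1.5 for Slc19a2 (persisting genes). It was -0.6 for Ephx1. Downward from 1 day to 1 week, the difference was -1.81 for Ctsb, -2.59 for Dhx58, -2.73 for Spp1, -1.39 for C3ar1, -2.14 for Lpl, -2.69 for Lgals1 and -1.0 for Ctsc (genes no longer changed). It was -1.38 for Irf9, -1.26 for Cst7, -1.64 for Lgals3, -1.31 for Ifit3 and -1.2 for Plk2. Downward from 1 day to 1 week, the difference was -1.14 for Lipa, -1.59 for Abcg1, -1.07 for Canx, -1.08 for Sppl2a, -1.0 for Serpine2, -1.24 for Smim3 and -0.82 for Mgea5 (reversed genes). Downward from 1 day to 1 week, the difference was -1.31 for C1qbp, -1.08 for Vhl, -1.41 for Efhd2, -1.21 for Tpm3, -1.11 for Arl8b, -0.77 for Lcp1 and -0.89 for Rap2c (new genes). It was -0.79 for Ank and -0.52 for Mylip. Downward from 1 day to 1 week, the difference was -0.73 for Amz1 and -0.84 for Ski (genes of none of these classes). Upward from 1 day to 1 week, the difference was 1.19 for Siglech, 0.52 for Cx3cr1 and 1.2 for Sall1 (genes no longer changed). Upward from 1 day to 1 week, the difference was 0.6 for Alox5ap, 1.73 for Rilpl1, 1.5 for Csad, 0.68 for Rnf130 and 0.81 for Bid (reversed genes). Upward from 1 day to 1 week, the difference was 1.78 for Bckdk, 1.64 for Slc39a3, 1.42 for Ap1b1, 1.12 for Fcrls, 1.08 for Pnp, 1.12 for Mcm6 and 1.03 for Casp8 (new genes). It was 2.24 for Hist1h1b, 1.04 for Tmem119 and 3.67 for Lars2. The 1 week calls of Rap2c and Ap1b1 were lost in 3 and 8 of the 12 fits that left a library out.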

How the results depend on the processing

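Over the 7 counts (genes called at 1 week, called for 1 week minus 1 day, called for 1 week minus the mean of 2 h and 1 day, persisting, reversed, new and no longer changed), the values as deposited, most of which are divided by the total of another library, gave 10, 2, 1, 4, 0, 0 and 2 genes. Limma-voom on the recovered reads gave 709, 1065, 867, 75, 77 and 262 for the first 6. Leaving out sham 1 day library 6, the shallowest of the series, gave 847 for 1 week minus 1 day. Without a filter on level 22 genes were reversed. The cause of each of these moves was not tested, other than the wrong totals of the deposited values by construction. Leaving out each 1 week library in turn gave 137 to 495 called genes, 342 to 655 for 1 week minus 1 day, 355 to 636 for 1 week minus the mean, 40 to 52 persisting, 10 to 43 reversed, 40 to 185 new and 162 to 182 no longer changed.

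With the replicate number as a block 251 genes were called at 1 week, 210 of them among the 359, and 15 were reversed. The correlation of same-numbered libraries was -0.041 to 0.062 at 1 week, -0.107 to 0.079 at 1 day, -0.012 to 0.036 at 6 h and 0.016 to 0.137 at 2 h, where all 6 were positive and 2 were over 0.1. The rule for pairing, over 0.1 in every pair, was met at no time, so the numbers were not taken as pairs, and the block fit has 20 residual degrees of freedom. The 1 week libraries alone gave 306 calls (192 up and 114 down), 181 of them among the 359. Removing a trend with GC content and transcript length, an alternative chosen after seeing the data, gave 321 calls, 272 of them shared. No named gene changed sign with a call. Of the 145 named genes the call or its absence was kept for 138 under median-of-ratios scaling, 143 with totals that leave out mitochondrial genes, 139 with a pseudocount of 0.1 and 124 in the 1 week libraries alone, and 85 lost the call in the deposited values. Depth limits genes of few reads, such as Phlda3 and Matn1 in sham libraries.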
